A study of Mus musculus with 6 samples.

Results

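Negative feedback genes of the Wnt pathway were examined in small intestinal adenomas of mice with and without genetic depletion of Paneth cells (PCs). The panel held *Axin2*, *Nkd1*, *Notum*, *Wif1*, *Rnf43*, *Znrf3*, *Apcdd1*, *Dkk2*, *Dkk3* and *Sp5*, 10 of the 48440 genes in the tables. They were chosen by name, as inhibitors of the pathway that Wnt signaling itself can turn on. RNA was sequenced from adenomas of ApcMin, PCdel mice (3 samples, libraries QC3, QC8 and QC10) and ApcMin, WT mice (3 samples, libraries QC4, QC5 and QC6), 1 library for each sample. The labels call the groups ApcMin.PCdel and ApcMin and give a C57BL/6 background and an age above 42 days for every sample. Both groups carried the ApcMin allele, a germline mutation of 1 copy of *Apc*. By the study's methods, PCdel mice also carried Defa4-Cre, an IRES-Cre cassette knocked into *Defa4* in embryonic stem cells of the 129/svJ strain, and Rosa26 iDTA/WT, so that diphtheria toxin A was made in cells that had used the *Defa4* locus, the PC lineage. The WT controls were littermates that carried Rosa26 iDTA/WT without Cre. Mice of both sexes were used, and the sex of each mouse is not used here. No normal mucosa or *Apc*-intact tumor was among the libraries, so whether these genes were raised in *Apc*-mutant cells could not be examined.

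In canonical Wnt signaling, a Wnt ligand binds a Frizzled receptor and an LRP co-receptor, the destruction complex that holds APC and AXIN stops degrading β-catenin, and β-catenin enters the nucleus and activates genes together with TCF/LEF factors. Several of the genes turned on in this way damp the pathway again, outside the cell, at the receptor, or inside the cell. In the intestine this loop is best known from the crypt base, where Wnt signaling maintains stem cells, and from tumors that have lost *Apc*, in which β-catenin is active without a ligand.

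Promoter sequence was examined first, because TCF/LEF factors are the step that links β-catenin to these genes. RefSeq promoter sequence (GRCm38.p6) was matched for 6 of the 10 genes, *Axin2*, *Nkd1*, *Wif1*, *Rnf43*, *Dkk2* and *Sp5*, in 7 windows of the 250 bases before an annotated start, with 2 windows for *Rnf43*. By the deposited gene positions, the windows of *Nkd1* and *Rnf43* lie inside the gene, and that of *Wif1* runs past the gene's start. The sequence before the outermost start of *Nkd1* and *Rnf43* was therefore not searched. The TCF/LEF core, spelled CTTTGAA or CTTTGAT and searched on both strands, was found in 1 of the 7 windows, against 7.48% of 32851 RefSeq promoter windows of the same length. The match lay in *Sp5*, 104 bases before the start. A GC box, spelled GGGCGG and searched on both strands, had 2 matches each in *Axin2*, *Wif1* and *Dkk2* and was held by 32.7% of all promoter windows. The windows of *Sp5* (chr2:70474673-70474922, plus strand) and *Axin2* (chr11:108920099-108920348, plus strand) are shown, the first because it holds the TCF/LEF match and the second because *Axin2* is the usual reporter of this loop and holds none in this window. Capitals mark the CTTTGAT match in *Sp5* and the GGGCGG matches in *Axin2*, 5′ to 3′.
Sp5: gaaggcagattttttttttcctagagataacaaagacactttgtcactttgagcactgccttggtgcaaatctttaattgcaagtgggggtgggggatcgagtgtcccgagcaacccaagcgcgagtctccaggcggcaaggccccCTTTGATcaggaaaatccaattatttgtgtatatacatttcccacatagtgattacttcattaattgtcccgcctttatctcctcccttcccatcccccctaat
Axin2: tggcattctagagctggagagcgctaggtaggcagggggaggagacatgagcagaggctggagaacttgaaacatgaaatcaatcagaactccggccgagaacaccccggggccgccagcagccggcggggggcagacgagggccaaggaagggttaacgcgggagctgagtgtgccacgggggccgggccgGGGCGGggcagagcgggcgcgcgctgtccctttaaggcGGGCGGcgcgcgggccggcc

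Library QC6, a WT library, stood apart from the others. The summed FPKM (fragments per kilobase of transcript, scaled by the authors to the library) of 14 absorptive enterocyte markers was 26960 in QC6 and between 10240 and 16190 in the other 5 libraries. The sum of 12 general epithelial markers was 5344 in QC6 and between 6074 and 7600 in the others. Not every marker of this list was lowest in QC6. There *Vil1* stood at 466 FPKM, against 386 to 468 in the others, and *Ezr* at 204 FPKM, against 180 to 211. QC6 also held the lowest FPKM of 8 of the 10 feedback genes, *Wif1* and *Dkk2* being the exceptions, both lowest in QC3. The difference between genotypes is therefore given with and without QC6 for each feedback gene and each gene list, and what part the tissue makeup of QC6 had in these values was not tested. In the bulk tissue measured here, fewer cells of a type and less RNA per cell cannot be told apart. The aligned sequence per library was estimated as the median ratio of deposited read coverage to FPKM among genes with 1 transcript. This takes coverage as the mean read depth per base, which the sources used here do not state. The estimate came to between 5.407 and 5.876 gigabases, and the deposited values hold no read counts. The check of the deleted lineage gave *Defa21*, a Paneth cell defensin, at 27.9 ± 7.62 FPKM (SD, n = 3) in PCdel adenomas and 240 ± 111 FPKM (SD, n = 3) in WT adenomas. In limma this was a log2 difference of -2.98 with a Benjamini-Hochberg adjusted p of 0.309. It was the largest difference of the 12 PC markers listed. *Lyz1* stood at 1060 ± 101 against 2060 ± 338 FPKM (SD, n = 3 each). *Defa24* stood at 1760 ± 704 against 3750 ± 1940 FPKM (SD, n = 3 each) and overlapped between genotypes. On the log2 scale 11 of the 12 were lower in PCdel adenomas, and *Habp2* was higher (0.4).

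All 10 genes were detected in all 6 libraries, and all 10 passed the filter of a mean FPKM of at least 1. By the mean over the 6 libraries, *Notum* (59.2 FPKM) and *Nkd1* (57 FPKM) were the most abundant, above 89.1% and 88.7% of the 14240 genes tested. *Wif1* (33.1 FPKM), *Axin2* (22.6 FPKM), *Dkk3* (20.7 FPKM), *Sp5* (15 FPKM) and *Rnf43* (13.3 FPKM) followed. *Znrf3* (5.29 FPKM), *Apcdd1* (2.81 FPKM) and *Dkk2* (2.04 FPKM) were the lowest. Of the 9 neighboring pairs in this order, the ranges over libraries overlapped in all but 1, *Rnf43* above *Znrf3*. Within libraries the order was steadier, with *Nkd1* above *Wif1*, *Dkk3* above *Sp5*, *Rnf43* above *Znrf3* and *Znrf3* above *Apcdd1* in 6 of 6 libraries.

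The order depended on the deposited measure. The tables also give a mean read coverage per gene, which was divided by the library's ratio of coverage to FPKM among genes with 1 transcript so that both stood on the FPKM scale. For *Apcdd1*, *Dkk2*, *Dkk3* and *Sp5* the measures were equal. For *Nkd1*, coverage came to between 6% and 6.02% of the FPKM, 3.42 in place of 57 on the FPKM scale, which moved the gene from rank 2 to rank 7. For *Rnf43* it came to between 11.4% and 12.5%, or 1.56 on the FPKM scale, the lowest of the 10. *Axin2* lay between 49.1% and 51.7%, *Znrf3* between 64.3% and 73%, *Notum* between 75.9% and 86.5%, and *Wif1* between 81.5% and 93.8%. The genotype difference was touched less than the level, since with coverage in place of FPKM the log2 fold change (PCdel minus WT) was 0.17 for *Nkd1* against 0.21 with FPKM, 0.16 for *Rnf43* against 0.24, 0.13 for *Axin2* against 0.16 and 0.33 for *Znrf3* against 0.26. These 6 genes have between 3 and 9 annotated transcripts. *Dkk2*, *Dkk3* and *Sp5* have 1 each, the kind of gene that set the scale, so their equality is no separate check of the measures. *Apcdd1*, whose measures were equal too, has 5. The cause of the gap was not tested, and the place of *Nkd1* and *Rnf43* among the 10 is uncertain.

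**Figure D1:**
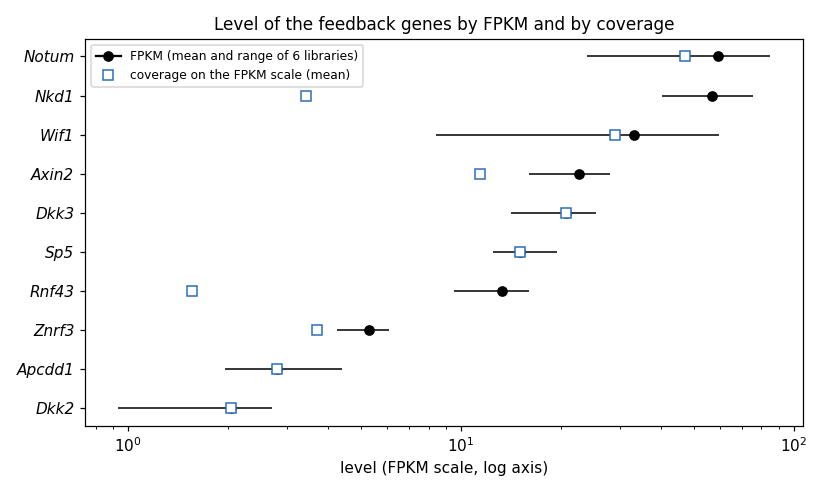
Level of each feedback gene on a log axis, as FPKM (black, mean and range of the 6 libraries) and as coverage on the FPKM scale (blue squares, mean). The measures coincide for Dkk2, Apcdd1, Dkk3 and Sp5 and part most for Nkd1 (57 against 3.42) and Rnf43 (13.3 against 1.56).

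Next, the genotypes were compared for each gene, to ask whether the feedback loop differed in PC-depleted adenomas. No feedback gene passed the threshold. With limma on log2(FPKM + 1) and Benjamini-Hochberg adjustment over 14240 genes, 0 of 10 had an adjusted p under 0.05, beside 2 of all genes (0.014%), and the adjusted p of each was 1. At an unadjusted p under 0.05 in limma there were 2 of the 10, *Znrf3* and *Dkk3*, beside 481 of the 14240 genes tested. These same 2 genes were the ones whose genotypes did not overlap, beside 1073 of all genes tested (7.54%). The PCdel mean lay above the WT mean on the log2 scale in 7 of the 10 and in 63.1% of all genes tested. Without QC6 it lay above in 5 of the 10, *Axin2* and *Notum* having changed sign. The median log2 fold change of the 10 was 0.23, beside 0.042 over all genes tested, and without QC6 these values were 0.00 and -0.002. An exact two-sided permutation test of 3 libraries against 3 cannot give a p below 0.1. The log2(FPKM + 1) scale understates the change of the weakest genes, *Dkk2* and *Apcdd1*.

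**Figure D2:**
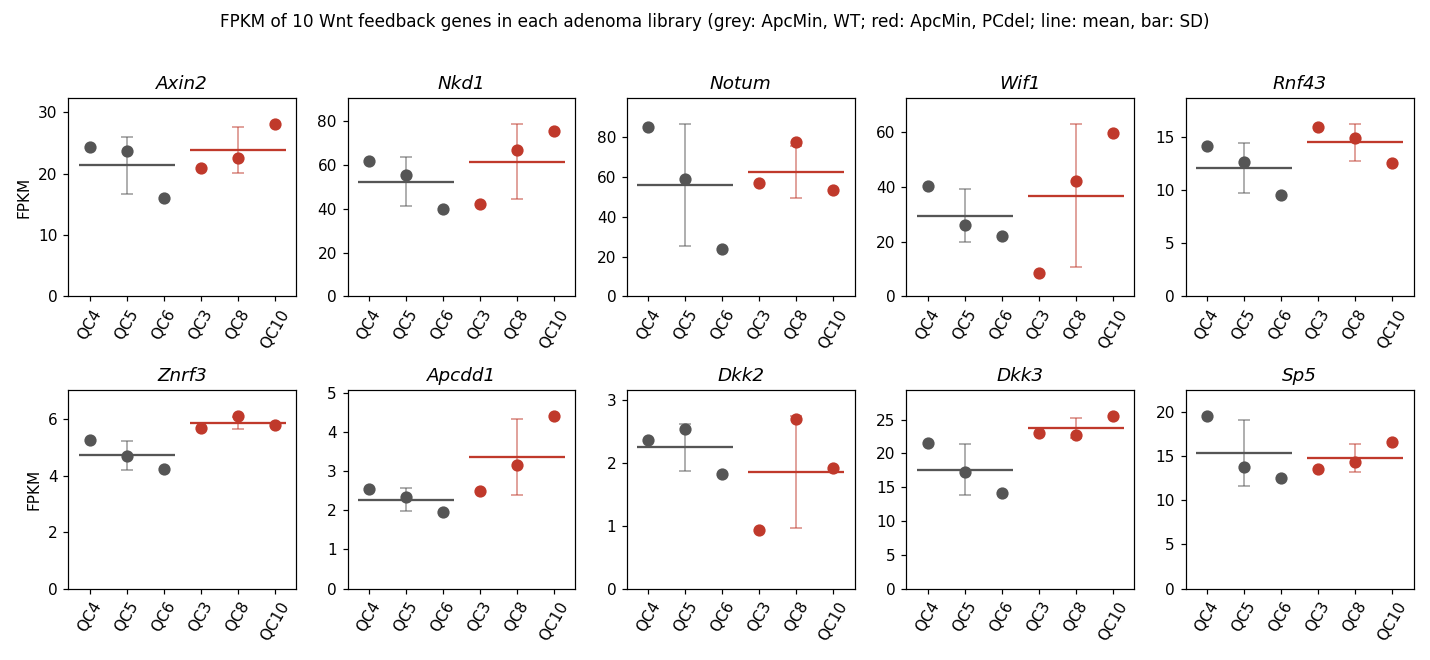
FPKM of each feedback gene (linear axis from 0) in WT libraries (grey: QC4, QC5, QC6) and PCdel libraries (red: QC3, QC8, QC10), with the group mean (line) and SD (bar). Znrf3 and Dkk3 are the genes whose red and grey points do not overlap, and QC6 is the lowest point of 8 of the 10 genes.

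The secreted and membrane-bound inhibitors act outside the cell. *Notum* (chromosome 11, 120653788 to 120661175, minus strand) encodes a carboxylesterase that removes the lipid that Wnt ligands need for receptor binding. Its FPKM was 56.9, 77.5 and 53.2 in PCdel libraries QC3, QC8 and QC10 and 84.9, 58.8 and 23.9 in WT libraries QC4, QC5 and QC6. The WT libraries held both the highest and the lowest value, and the PCdel libraries lay between them. The means were 62.5 ± 13.1 FPKM (SD, n = 3) and 55.9 ± 30.6 FPKM (SD, n = 3), and limma gave a log2 fold change of 0.32 (standard error 0.44). Its 95% interval ran from -0.73 to 1.36, and without QC6 the value was -0.19. Of the 31-base words of *Notum* transcripts, 33% also occur in transcripts of other genes, first among them the overlapping antisense gene *Notumos*. *Notumos* stood between 2.24 and 6 FPKM, at most 11.3% of *Notum* in the same library, and the sources used here do not say whether strand was used in counting.

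*Wif1* (chromosome 10, 121033960 to 121100650, plus strand) encodes a secreted protein that binds Wnt ligands. It varied most of the 10 genes, with 8.39, 41.9 and 59.7 FPKM in PCdel libraries QC3, QC8 and QC10 and 40.3, 26.2 and 22.1 FPKM in WT libraries QC4, QC5 and QC6. The highest library was 7.12 times the lowest, and both extremes were PCdel libraries. The mean FPKM was higher in PCdel adenomas, 36.7 ± 26.1 (SD, n = 3) against 29.5 ± 9.56 (SD, n = 3), but the mean on the log2 scale was not, with a log2 fold change of -0.03 (standard error 0.67, 95% interval -1.64 to 1.58 in limma). Without QC6 the log2 fold change was -0.21. Without library QC3 it was 0.79 and limma's unadjusted p was 0.0356, with an adjusted p of 1.

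*Dkk2* and *Dkk3* belong to the Dickkopf family of secreted proteins. Dkk2 binds the LRP co-receptors, and Dkk3 is a divergent relative whose place in Wnt signaling is less settled. *Dkk2* (chromosome 3, 132085292 to 132180304, plus strand) gave 0.931, 2.7 and 1.91 FPKM in PCdel libraries QC3, QC8 and QC10 and 2.36, 2.53 and 1.82 FPKM in WT libraries QC4, QC5 and QC6. The groups overlapped, and the PCdel libraries again held both the lowest and the highest value. The PCdel mean, 1.85 ± 0.887 FPKM (SD, n = 3), was 82.6% of the WT mean, 2.24 ± 0.373 FPKM (SD, n = 3). Its log2 fold change was -0.23 (standard error 0.24, 95% interval -0.81 to 0.36 in limma), -0.33 without QC6 and 0.03 without library QC3.

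*Dkk3* (chromosome 7, 112116017 to 112159057, minus strand) showed the largest log2 difference of the 10 genes over all 6 libraries with a pseudocount of 1, while that of *Apcdd1* was larger with a pseudocount of 0.1 (0.51 against 0.45) and without QC6 (0.32 against 0.29). Its FPKM was 23, 22.7 and 25.5 in PCdel libraries QC3, QC8 and QC10 and 21.6, 17.2 and 14.1 in WT libraries QC4, QC5 and QC6. Every PCdel library lay above every WT library. The PCdel mean, 23.7 ± 1.5 FPKM (SD, n = 3), was 135% of the WT mean, 17.6 ± 3.78 FPKM (SD, n = 3), a log2 fold change of 0.43 (standard error 0.16, 95% interval 0.05 to 0.81). The exact permutation p was 0.1, the smallest possible, limma's unadjusted p was 0.033, and the Benjamini-Hochberg adjusted p was 1. Without QC6 the log2 fold change was 0.29 with an unadjusted p of 0.0667 in limma. The summed FPKM of 12 fibroblast markers, such as collagens and *Pdgfra*, ran from 327.5 to 485.2 in PCdel and from 298.5 to 366.5 in WT libraries, and 11 of the 12 had a higher PCdel mean on the log2 scale, 9 of 12 without QC6. That of 12 PC markers ran from 6355 to 9956 in PCdel and from 9267 to 15730 in WT libraries, and 11 of the 12 had a lower PCdel mean on the log2 scale, 10 of 12 without QC6 and 10 of 12 by mean FPKM. No marker of either list was at 0. With the mean log2(FPKM + 1) of the fibroblast list, *Dkk3* had a Pearson r of 0.56, 0.16 within genotypes and 0.08 without QC6. With that of the PC list these values were -0.96, -0.92 and -0.96. The part of these cell types in the value of *Dkk3* was not tested.

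*Apcdd1* (chromosome 18) encodes a membrane-bound inhibitor that can bind Wnt and LRP proteins. Its FPKM was 2.5, 3.15 and 4.4 in PCdel libraries QC3, QC8 and QC10 and 2.53, 2.34 and 1.95 in WT libraries QC4, QC5 and QC6. The groups overlapped by 1 pair of libraries, QC4 standing just above QC3. The PCdel mean, 3.35 ± 0.967 FPKM (SD, n = 3), was 147% of the WT mean, 2.27 ± 0.294 FPKM (SD, n = 3), the largest ratio of the 10. On the log2(FPKM + 1) scale the difference was 0.39 (standard error 0.18, 95% interval -0.03 to 0.82), with an unadjusted p of 0.0658 and an adjusted p of 1 in limma, and without QC6 it was 0.32.

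The receptor-level inhibitors are *Rnf43* and *Znrf3*, related transmembrane E3 ubiquitin ligases that take Frizzled receptors off the cell surface. *Znrf3* (chromosome 11, 5276324 to 5444847, minus strand) was the steadiest of the 10, its highest library being 1.44 times its lowest. Its FPKM was 5.67, 6.1 and 5.8 in PCdel libraries QC3, QC8 and QC10 and 5.25, 4.69 and 4.23 in WT libraries QC4, QC5 and QC6. All 3 PCdel libraries were above all 3 WT libraries. The PCdel mean, 5.86 ± 0.216 FPKM (SD, n = 3), was 124% of the WT mean, 4.72 ± 0.51 FPKM (SD, n = 3), a log2 fold change of 0.26 (standard error 0.11, 95% interval 0.01 to 0.52). The exact permutation p was 0.1, limma's unadjusted p was 0.0424 and its adjusted p was 1. Without QC6 the log2 fold change was 0.20 with an unadjusted p of 0.0777 in limma. For *Znrf3* and *Dkk3* alike, the unadjusted p was above 0.05 in 5 of the 6 fits that leave out 1 library, and the sign was the same in all 6.

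*Rnf43* (chromosome 11, 87662722 to 87735539, plus strand) gave 16, 14.9 and 12.6 FPKM in PCdel libraries QC3, QC8 and QC10 and 14.2, 12.7 and 9.55 FPKM in WT libraries QC4, QC5 and QC6. The groups overlapped, although QC3 and QC8 were above every WT library. The means were 14.5 ± 1.73 FPKM (SD, n = 3) and 12.1 ± 2.36 FPKM (SD, n = 3), and the log2 fold change in limma was 0.24 (standard error 0.16, 95% interval -0.15 to 0.64), or 0.09 without QC6. A noncoding gene on the same strand, *1110028F11Rik*, lies within *Rnf43* and stood between 9.68 and 16 FPKM. Their annotated transcripts share no 31-base word.

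Inside the cell, *Axin2* encodes a scaffold of the destruction complex and *Nkd1* a protein that binds Dishevelled. *Axin2* (chromosome 11, 108920349 to 108950783, plus strand) gave 21, 22.5 and 28.1 FPKM in PCdel libraries QC3, QC8 and QC10 and 24.4, 23.7 and 16 FPKM in WT libraries QC4, QC5 and QC6. The groups overlapped, with QC10 highest and QC6 lowest. The means were 23.9 ± 3.73 FPKM (SD, n = 3) and 21.4 ± 4.66 FPKM (SD, n = 3). The log2 fold change in limma was 0.16 (standard error 0.19, 95% interval -0.29 to 0.62), and it was -0.02 without QC6 and -0.04 with array quality weights, which gave QC6 a weight of 0.237.

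*Nkd1* (chromosome 8, 88521354 to 88594884, plus strand) gave 42.4, 66.6 and 75.5 FPKM in PCdel libraries QC3, QC8 and QC10 and 61.7, 55.5 and 40.1 FPKM in WT libraries QC4, QC5 and QC6. The lowest PCdel library was close to the lowest WT library. The means were 61.5 ± 17.1 FPKM (SD, n = 3) and 52.4 ± 11.1 FPKM (SD, n = 3), with a log2 fold change in limma of 0.21 (standard error 0.25, 95% interval -0.4 to 0.81), or 0.03 without QC6.

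*Sp5* (chromosome 2, 70474923 to 70477729, plus strand) encodes a zinc finger transcription factor of the Sp family and is itself a known Wnt target. Its FPKM was 13.5, 14.3 and 16.6 in PCdel libraries QC3, QC8 and QC10 and 19.5, 13.8 and 12.5 in WT libraries QC4, QC5 and QC6. The WT libraries held the highest and the lowest value. The means, 14.8 ± 1.57 FPKM (SD, n = 3) and 15.3 ± 3.73 FPKM (SD, n = 3), were the closest of the 10 by ratio (97.1%), and the log2 fold change in limma was -0.02 (standard error 0.18, 95% interval -0.44 to 0.4). Without QC6 it was -0.14, and with the deposited TPM, which is scaled to the same sum in every library, in place of FPKM it was 0.04.

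**Figure D3:**
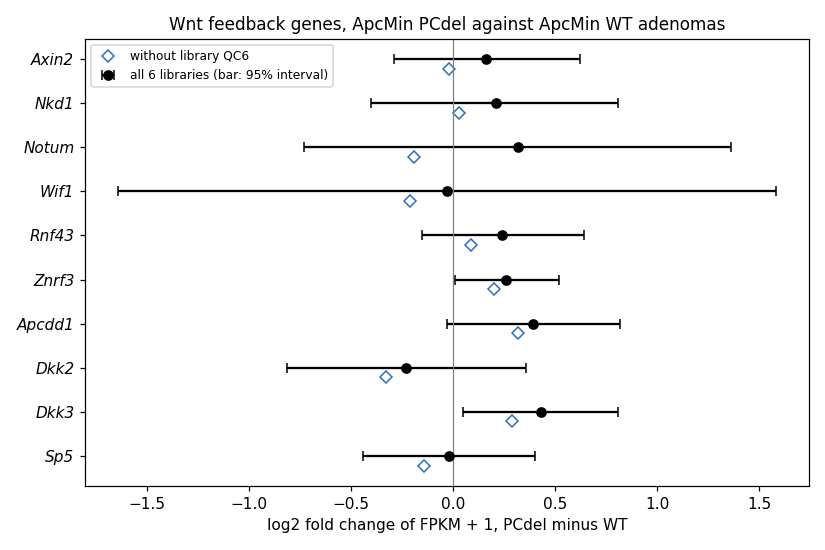
Log2 fold change of FPKM + 1, PCdel minus WT, from limma with its 95% interval (black, 6 libraries) and without library QC6 (blue diamonds). The intervals of Znrf3 (0.01 to 0.52) and Dkk3 (0.05 to 0.81) lie above 0, and the diamond of Apcdd1, the highest, stands at 0.32.

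The other genes of the pathway were read from the same fit. Of 31 other Wnt antagonists, 16 passed the filter, 10 of them higher and 6 lower in PCdel adenomas on the log2 scale, with a median log2 fold change of 0.09 and 0 called by limma at an adjusted p under 0.05. Without QC6, 8 were higher and 8 lower, with a median of 0.00, beside 49.4% of all genes higher. *Dkk1*, *Dkk4* and *Sost*, further secreted antagonists, were listed at 0 in all 6 libraries. The largest differences were in *Tle3* (14.1 ± 0.944 against 11.7 ± 0.814 FPKM, SD, n = 3 each, log2 fold change 0.25), *Kremen1* (log2 fold change 0.19) and *Tle4* (log2 fold change 0.19). Tle3 and Tle4 are co-repressors that bind TCF/LEF factors, and Kremen1 is a receptor for Dickkopf proteins. In each of these 3 genes, chosen for their large differences, every PCdel library lay above every WT library. The genotypes did not overlap in 4 of the 16, beside 7.54% of all genes tested.

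Of 29 other genes known as targets of β-catenin, 26 passed the filter, 21 of them higher and 5 lower, with a median log2 fold change of 0.06 and 0 called in limma after adjustment. Without QC6, 10 were higher and 16 lower, with a median of -0.03. *Wisp1* (log2 fold change 0.41), *Bmp4* (log2 fold change 0.40) and *Mmp14* (log2 fold change 0.26) differed most, and the genotypes overlapped in each. A list of 40 further pathway genes held receptors, the destruction complex, secretion genes such as *Wls* and nuclear partners such as *Bcl9*. Of these, 31 passed the filter, 29 of them higher and 2 lower, with a median of 0.13 and 0 called in limma after adjustment. Without QC6, 25 were higher and 6 lower, with a median of 0.05. Among all genes tested, 63.1% were higher, and 49.4% without QC6. The largest difference, in *Pygo2*, a nuclear partner of β-catenin, was 17.8 ± 1.54 against 10.6 ± 8.75 FPKM (SD, n = 3 each). It overlapped between genotypes, since QC4 stood at 20.7 FPKM while QC5 and QC6 stood at 5.04 and 6.17 FPKM. The receptors *Fzd10* (log2 fold change 0.58) and *Fzd1* (log2 fold change 0.49) followed, and neither overlapped between genotypes. In this list the genotypes did not overlap in 5 of the 31 genes, beside 7.54% of all genes tested. The adjusted p from limma was 1 for each of the 9 genes named from these lists.

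Then the covariation of the feedback genes was examined. Of the 45 pairs, 41 had a Pearson r above 0 over the 6 libraries, with a median r of 0.61. On deviations from the genotype means the median r was 0.67, and 43 pairs were above 0. QC6 carried much of this, since without it the median r was 0.28 and 32 pairs were above 0. By exact permutation over the 720 orders of the libraries, 7 pairs had an unadjusted p under 0.05, and after Benjamini-Hochberg adjustment over the 45 pairs none did, the smallest adjusted p being 0.25.

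*Nkd1* and *Wif1* moved most alike once QC6 was set aside. Their r was 0.86 over the 6 libraries (rho 0.94, exact permutation p = 0.0167), 0.98 without the 2 libraries farthest from the median of *Nkd1*, 0.92 within genotypes and 0.99 without QC6. *Axin2* and *Nkd1* gave an r of 0.86 (rho 0.83, exact permutation p = 0.0111), 0.68 without the 2 farthest libraries and 0.81 without QC6. *Znrf3* and *Dkk3* gave the highest r of the 45 pairs, 0.95 (rho 0.83, exact permutation p = 0.00972), which was 0.87 within genotypes and 0.88 without QC6 but 0.47 without the 2 farthest libraries. *Nkd1* and *Apcdd1* gave 0.83 (rho 0.94, exact permutation p = 0.0278), 0.97 without the 2 farthest libraries and 0.75 without QC6.

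Other pairs rested on QC6. The r of *Notum* and *Rnf43* went from 0.85 (rho 0.6) to 0.32 without that library, and that of the ligases *Rnf43* and *Znrf3* went from 0.80 (rho 0.54) to 0.45. For *Axin2* and *Rnf43*, r was 0.52 over all 6 libraries, with a rho of -0.09 and an exact permutation p of 0.285, and -0.84 without QC6. Without QC6, *Rnf43* was the gene that stood most apart from the rest. Over all 6 libraries the median r with the other feedback genes was lowest for *Dkk2* (0.28), followed by *Rnf43* (0.34). *Rnf43* was highest in QC3, where *Wif1* and *Dkk2* were lowest.

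**Figure D4:**
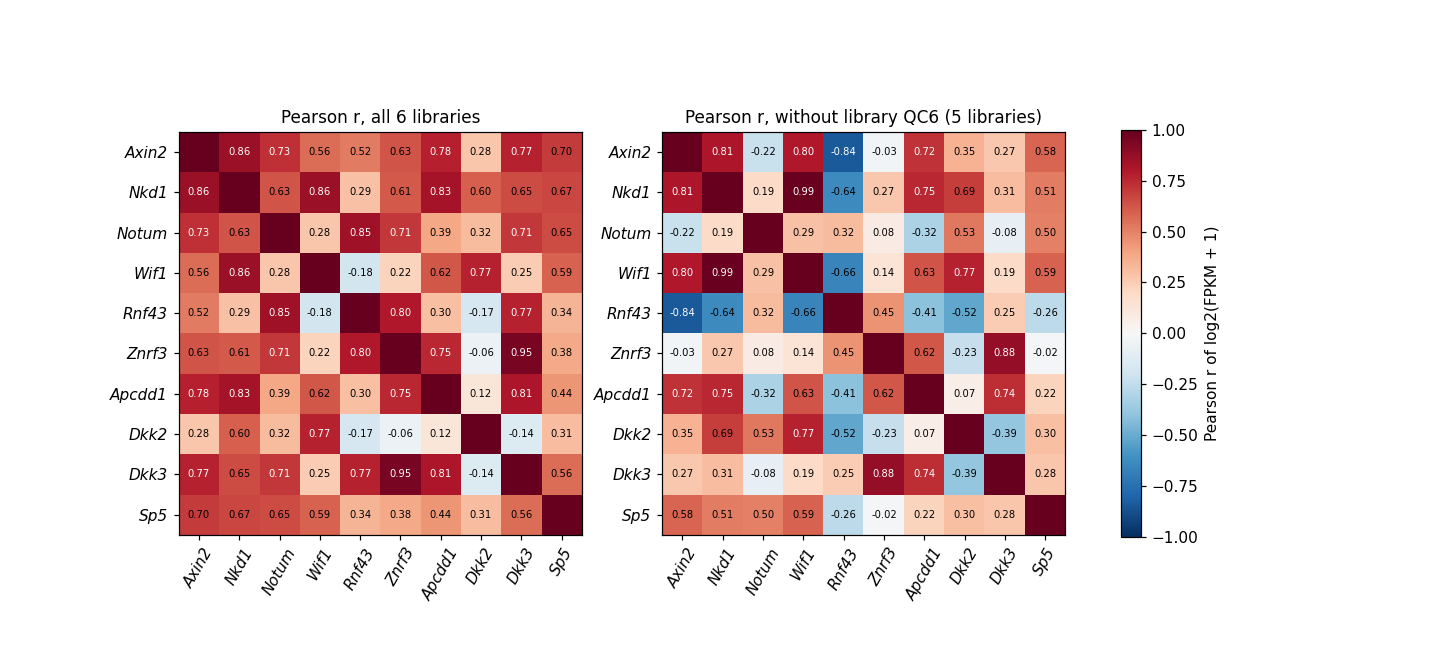
Pearson r of log2(FPKM + 1) for each pair of feedback genes over all 6 libraries (left) and without library QC6 (right), on a color scale from -1 (blue) to 1 (red). Red fills most of the left panel (41 of 45 pairs above 0), while on the right 32 pairs stay above 0 and the row of Rnf43 is largely blue.

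A positive r was common among all genes, so each feedback gene was also set against the whole table. For *Axin2*, the median r with the other 9 feedback genes was 0.70 and with all genes tested 0.33, and 69.8% of the tested genes had an r above 0 with it. For *Nkd1* the medians were 0.65 and 0.21, for *Dkk3* 0.71 and 0.31, for *Znrf3* 0.63 and 0.31, and for *Apcdd1* 0.62 and 0.16. *Wif1* (0.56 and 0.01), *Notum* (0.65 and 0.42), *Sp5* (0.56 and 0.21) and *Dkk2* (0.28 and 0.04) also had the higher median with the other feedback genes. *Rnf43* had the lower one (0.34 and 0.39). The genes most like *Axin2* over the 6 libraries were not members of the panel. They were *Gm9333* (r 0.996), *Nip7* (0.995), *Gm5637* (0.994), *Atp6v1g1* (0.993) and *Styx* (0.993). *Nkd1*, the nearest feedback gene, came at rank 815.

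Finally, the feedback genes were set beside the marker lists of cell types, each list taken as its mean log2(FPKM + 1). Over the 6 libraries, 10 of 10 had an r above 0 with the epithelial list (median 0.67). Without QC6 it was 6 of 10 (median 0.53), with *Rnf43* at -0.91. With the absorptive enterocyte list 0 of 10 were above 0 (median -0.69), and 4 of 10 without QC6 (median -0.26), with *Dkk3* at 0.52. With the PC list 1 of 10 was above 0 (median -0.59), and 2 of 10 without QC6 (median -0.19). With the fibroblast list 7 of 10 were above 0 (median 0.17), and 4 of 10 without QC6 (median -0.37). With the endothelial list 6 of 10 were above 0 (median 0.22), and without QC6 1 of 10, *Rnf43* (median -0.49). The smooth muscle list gave 4 of 10 with and without QC6 (medians -0.11 and -0.09), but 1 of 10 within genotypes (median -0.39). The immune cell list gave 3 of 10 (median -0.10), 5 of 10 without QC6 (median 0.02) and 0 of 10 within genotypes (median -0.78). Of these 70 relations, 8 had an unadjusted exact permutation p under 0.05 and none an adjusted one, the smallest adjusted p being 0.0972.

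Between the genotypes, the lists themselves differed in direction, and no marker of any list was called by limma at an adjusted p under 0.05 or was at 0. On the log2 scale, 10 of 12 epithelial markers had a higher PCdel mean over the 6 libraries and 4 of 12 without QC6. Their summed FPKM was 6074 to 7600 in PCdel and 5344 to 7422 in WT libraries. Of the absorptive enterocyte markers 2 of 14 were higher, and 10 of 14 without QC6 (sums 10240 to 16190 and 10930 to 26960). Of the smooth muscle markers 10 of 10 were higher, and 9 of 10 without QC6 (sums 356.1 to 502.7 and 248.2 to 395). The immune cell markers gave the same counts (sums 70.04 to 74.75 and 54.93 to 77.99), although *Cd3g* had the lower mean FPKM in PCdel adenomas. Of the endothelial markers 5 of 8 were higher, and 2 of 8 without QC6 (sums 46.87 to 74.91 and 38.63 to 61.94). The summed FPKM of each list overlapped between the genotypes.

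The relation of *Axin2* with the epithelial list changed little with the libraries taken. It had an r of 0.97 (rho 0.94, exact permutation p = 0.00278, adjusted p = 0.0972), 0.96 without the 2 libraries farthest from the median of the list, 0.98 within genotypes and 0.91 without QC6. Single genes with an r over 0.8 with *Axin2* made up 10.4% of all genes tested. *Dkk3* had an r of -0.96 with the PC list (rho -1.0, exact permutation p = 0.00139, the smallest that 6 libraries allow, adjusted p = 0.0972), -0.94 without the 2 farthest libraries, -0.92 within genotypes and -0.96 without QC6. *Znrf3* gave -0.89 with the same list (rho -0.83, exact permutation p = 0.0181, adjusted p = 0.211), -0.61 within genotypes and -0.79 without QC6. *Rnf43* had an r of 0.90 with the fibroblast list (rho 0.94, exact permutation p = 0.00694, adjusted p = 0.162), 0.91 without the 2 farthest libraries and 0.88 without QC6. *Notum* had an r of -0.95 with the absorptive enterocyte list (rho -0.94, exact permutation p = 0.0153, adjusted p = 0.211), -0.75 without the 2 farthest libraries and -0.69 without QC6. None of these relations was called after adjustment. With the epithelial list level as a covariate in limma, the feedback genes' median log2 fold change was 0.12, against 0.23 without. The value was 0.07 against 0.16 for *Axin2*, 0.09 against 0.21 for *Nkd1* and 0.14 against 0.32 for *Notum*. *Rnf43* (0.21 against 0.24), *Znrf3* (0.24 against 0.26), *Apcdd1* (0.32 against 0.39) and *Dkk3* (0.37 against 0.43) changed less. *Wif1* (-0.28 against -0.03), *Dkk2* (-0.31 against -0.23) and *Sp5* (-0.08 against -0.02) became more negative. The part of cell makeup was not tested further.

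**Figure D5:**
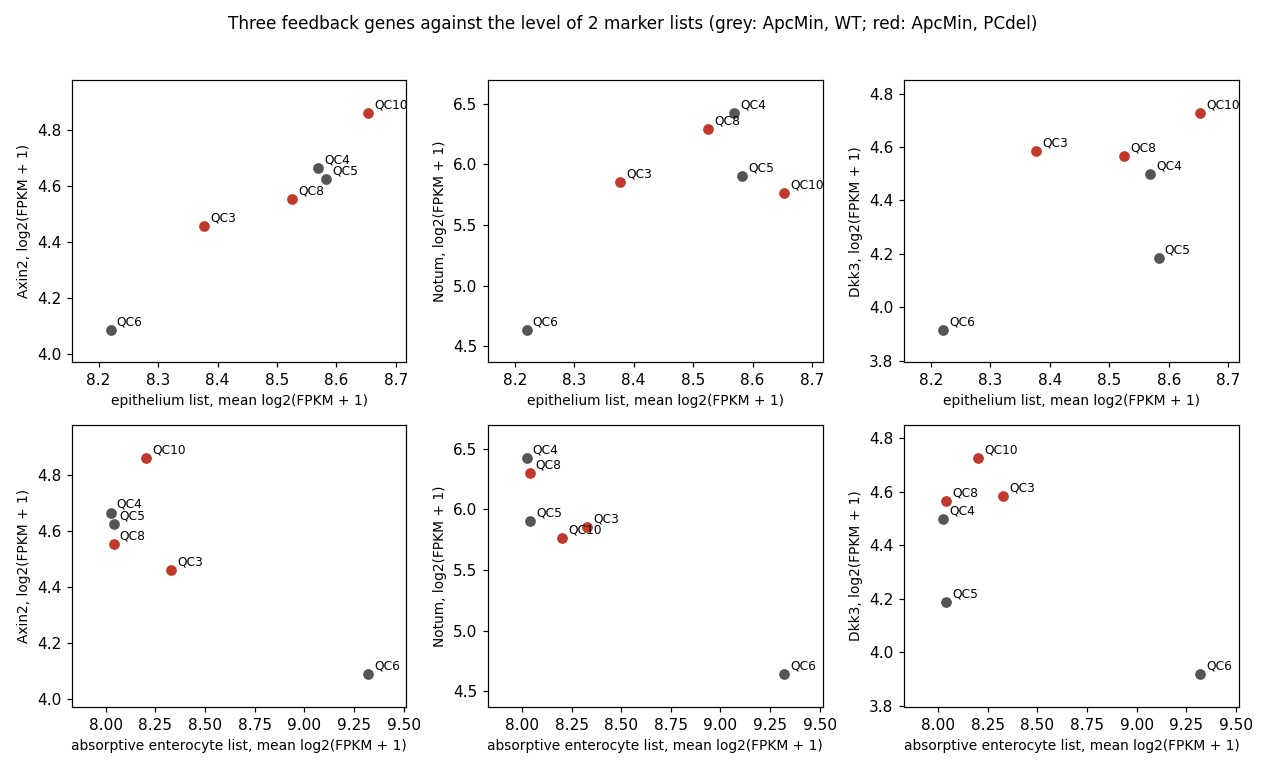
Log2(FPKM + 1) of Axin2, Notum and Dkk3 (columns, vertical axes) against the mean log2(FPKM + 1) of the epithelial list (top) and the absorptive enterocyte list (bottom), 1 point per library (grey, WT; red, PCdel). QC6 stands at the far left of the top row and at the far right of the bottom row, and Axin2 is higher where the epithelial list is higher (r 0.97).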

How the data were processed

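RNA from adenomas was prepared with the TruSeq kit and sequenced on a HiSeq 2500, and the study names CLC Genomics Workbench 7 for alignment. The authors deposited FPKM per gene and library, scaled for length and library size. The deposited TPM served as an alternative, and the deposited coverage (signal) as a measure of depth and level. The program behind these values is not given in the sources used here. Of the 48440 gene IDs, 40606 occur in GENCODE M21 (GRCm38), 40600 of them at the same position. Transcript counts were taken from that release. FPKM of repeated entries of a gene were summed.

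Genotypes were compared with limma 3.58.1 in R 4.3.3 (eBayes with trend) on log2(FPKM + 1), over genes averaging 1 FPKM or more, with p-values adjusted by Benjamini-Hochberg and called under 0.05. The fit was tested on simulated data. Exact permutation tests used the 20 assignments of genotypes or the 720 orders of the libraries. Read length was not used, so read counts and counting intervals were not derived. Whether the 3 libraries of a group came from separate mice or litters is not stated in the sources used here. The p-values set the genotype difference against the spread between these libraries. The members and lists were chosen with earlier results of these data known. All members were described, with the 3 largest differences of each pathway list and the 5 genes most like *Axin2*. Alternatives were another pseudocount (0.1), other filters, scalings, TPM, weights, a covariate, each library left out and, added after the data were seen, coverage.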

Additional observations from a re-analysis of the deposited data

How the results depend on the processing

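In all 16 alternatives 0 of the 10 feedback genes were called by limma, and the smallest adjusted p of any of them was 0.52. Of 158 fits of single feedback genes, 146 kept the sign of the reported value, 10 reversed it and 2 came to 0.00. *Rnf43*, *Znrf3*, *Apcdd1* and *Dkk3* kept theirs in each fit, while *Nkd1* came to 0.00 with array quality weights and *Sp5* to 0.00 without QC8. With those weights *Axin2* came to -0.04 and the median of the 10 to 0.00. With TPM, *Wif1* came to 0.02 and *Sp5* to 0.04. When single libraries were left out, fold changes on the log2 scale ran from -0.02 to 0.27 for *Axin2*, -0.19 to 0.70 for *Notum*, -0.56 to 0.79 for *Wif1*, -0.44 to 0.03 for *Dkk2* and -0.14 to 0.16 for *Sp5*. Over the same fits the median of the 10 ran from 0.00 to 0.33 and the median r of their pairs from 0.28 to 0.73, the low end of both being without QC6. Among all genes, the 2 calls became 1 with no filter, with median centring and with the epithelial list as a covariate, and between 1 and 5 with a library left out (5 without QC4). The 481 genes at an unadjusted p under 0.05 became 976 with no filter, 260 at a mean FPKM of at least 5, which leaves out *Dkk2* and *Apcdd1*, 1270 with array quality weights and 820 without QC6. Of the 481, 79.8% were higher in PCdel adenomas, against 58.9% after quantile normalization, 61.4% after median centring, 63.5% under array quality weights and 59.4% without QC6. The causes of these shifts were not tested. No replicate block or paired analysis was fitted, because the labels used here do not link libraries of one group to those of the other. Depth, estimated only as aligned sequence, sets no stated limit for *Dkk2* or *Apcdd1*, the weakest of the 10.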
